A study of Mus musculus with 78 samples.

Results

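TFIIH is the general transcription factor that opens promoter DNA for RNA polymerase II, phosphorylates the tail of its largest subunit and unwinds damaged DNA in nucleotide excision repair. Its core holds the DNA helicases XPB (gene Ercc3) and XPD (gene Ercc2) with p62 (Gtf2h1), p44 (Gtf2h2), p34 (Gtf2h3), p52 (Gtf2h4) and p8 (Gtf2h5), and its kinase module holds CDK7 (Cdk7), cyclin H (Ccnh) and MAT1 (Mnat1). The 10 genes that encode these subunits are described here, of 55401 genes in each count table. They were chosen by membership of the complex after earlier results of these data were known, namely the promoter peak of ZFP143 at Gtf2h4 and the fall of Gtf2h4 after ZFP143 loss. Binding and the response of Gtf2h4 to ZFP143 loss are therefore given as a description without a test, and the other 9 members were included as its partners in the complex.

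ZFP143 is a zinc finger transcription factor that binds mostly at promoters. All cells were mouse embryonic stem cells of the line E14TG2a with the genotype ZFP143-FKBP, in which homozygous clones carry an FKBP degron on the endogenous Zfp143 gene, so that the controls also hold the tagged protein. ZFP143 was removed with 500 nM dTAG-V1, and DMSO was the control. Transient transcriptome sequencing (TT-seq), which reads RNA made during 10 min of labelling with 2 mM 4-thiouridine, covered DMSO and 2, 6 and 24 h of dTAG, and RNA-seq covered DMSO and 24, 48 and 72 h. A further RNA-seq experiment compared 24 h of DMSO or dTAG with a total of 48 h of the same treatment of which the last 24 h were in differentiation medium with 1 µM retinoic acid (RA). The differentiation medium was not given alone, so an RA effect includes the change of medium and of time. Each group had 2 libraries. Bulk counts cannot tell fewer cells of a type apart from less RNA per cell.

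Total counts ranged from 9721568 to 16532077 in TT-seq, from 10261851 to 15316700 in the RNA-seq time course and from 13890761 to 27089033 in the RA experiment. All 8 stem cell markers examined, Pou5f1 and Nanog among them, exceeded 1 CPM (read count scaled to the effective library size) in both libraries of every group, while the 4 fibroblast markers summed to at most 1.57 CPM in any TT-seq library and 5.52 CPM in any library of the RNA-seq time course. Zfp143 RNA itself was called higher in all 8 comparisons of dTAG with DMSO, by 1.09 to 1.38 on the log2 scale. dTAG acts on the protein, so this transcript does not measure the depletion.

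Gtf2h4 was the bound gene of the complex, which was one reason for the choice of these genes. Binding meant a ZFP143 peak that reached into a promoter window, 2000 bp before to 1000 bp after a transcript start, and was centred at most 2000 bp from it. Gtf2h4 (ENSMUSG00000001524.14, mm10 chr17:35667730-35673739, minus strand) was the 1 member of 10 with such a peak. Of all protein-coding genes, 10.1% were bound, and nothing is read from the members' share, which the choice of Gtf2h4 fixed. Of the 9 partners 0 were bound. The Gtf2h4 peak covers chr17:35673468-35674038, 571 bp that span the promoter and the first bases of the gene, and its centre lies 14 bp upstream of the gene start. It was enriched 141-fold over input with a −log10 q of 498, rank 27 of 3189 peaks by enrichment. No CTCF peak overlapped it. The peak list is a single set without replicates, so its values have no error.

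The other members had their nearest ZFP143 peak far from the promoter. The distance ran from 8.42 kb at Ercc2 to 857 kb at Ccnh. Gtf2h1, Gtf2h3 and Gtf2h5 share a divergent promoter with another gene, at 39 bp from Hps5, 9 bp from Eif2b1 and 45 bp from Serac1, and these neighbours were not bound either. Gtf2h4 has no gene start within 1000 bp of its own. Downstream, 137 bp separate its end from the start of Vars2 on the same strand.

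The 250 bases before the RefSeq start of Gtf2h4 are shown because the peak covers them and because they hold the letters for which ZFP143 and its human counterpart are known. That motif begins with ACTACA, followed within a few bases by CCCANNATG, and the factor Ronin (THAP11) recognises letters that overlap it. Both parts were searched on both strands. In the sequences below capitals mark their matches, and TGTAGT is ACTACA read on the opposite strand. The sequences are from RefSeq, build GRCm38.p6, and are written 5′ to 3′ along the gene. The first is Gtf2h4, minus strand of chr17:35673744-35673993, and the second is Cdk7, minus strand of chr13:100730943-100731192, shown as a partner without a peak.
Gtf2h4: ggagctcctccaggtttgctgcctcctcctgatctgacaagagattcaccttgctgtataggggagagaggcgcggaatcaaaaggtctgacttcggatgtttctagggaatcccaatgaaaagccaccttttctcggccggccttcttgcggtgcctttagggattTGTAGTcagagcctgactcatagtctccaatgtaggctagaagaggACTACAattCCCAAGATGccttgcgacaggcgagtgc
Cdk7: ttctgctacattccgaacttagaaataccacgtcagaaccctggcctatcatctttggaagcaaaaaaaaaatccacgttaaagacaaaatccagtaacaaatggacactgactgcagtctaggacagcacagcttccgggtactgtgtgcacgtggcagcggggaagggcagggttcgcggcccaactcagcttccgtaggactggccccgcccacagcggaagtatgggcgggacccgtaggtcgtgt

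Gtf2h4 held 3 matches in these bases and Cdk7 held 0. In Gtf2h4 the ACTACA at 37 bases before the start is followed after 3 bases by CCCAAGATG, so both parts stand in tandem on the strand of the gene. The peak summit lay 39 bp from this ACTACA and 2 bp from the TGTAGT further upstream. The promoters of 8 members were searched, without those of Ercc3 and Ccnh. Gtf2h4 was the 1 that held a match in the 250 bases before and 50 bases after the start. Among all 32851 RefSeq promoters of that length, 10.3% held ACTACA, 5.01% held CCCANNATG and 0.825% held both. Windows of 300 bases around the summits of the 3189 ZFP143 peaks held them in 40.1%, 25.7% and 9.16%. Only exact letters were counted. The paper searched with motif models that tolerate other letters and reports a motif in nearly all peaks. The shares here therefore do not say how many peaks hold the motif. A match describes the letters alone. The Gtf2h4 promoter also held 8 CpG dinucleotides in 300 bases, the fewest among these 8 members, whose other promoters held from 12 to 39. The median over all promoters was 7.

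Nascent transcription of Gtf2h4 fell within 2 h of dTAG. The 2 DMSO libraries held 9.10 and 9.98 CPM, and the libraries at 2 h held 1.91 and 1.69. At 6 h the values were 1.17 and 1.07, and at 24 h they were 0.984 and 1.29. Every dTAG library lay below both DMSO libraries. The fitted log2 change was −2.41 ± 0.27 (SE) at 2 h, −3.08 ± 0.29 at 6 h and −3.05 ± 0.29 at 24 h, which leaves 18.9%, 11.8% and 12.1% of the control level. Read depth limits these values, as Gtf2h4 had 88 and 131 reads in DMSO and between 10 and 28 after dTAG. Without dTAG 2 h replicate 2 the change at 2 h was −2.30 and was not called.

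RNA of Gtf2h4 followed the same direction. In the time course the DMSO libraries held 43.6 and 44.7 CPM. The dTAG libraries of 24 h held 5.004 and 3.92, those of 48 h held 3.76 and 3.03, and those of 72 h held 2.50 and 2.66. The log2 change was −3.30 ± 0.13 at 24 h, −3.69 ± 0.13 at 48 h and −4.09 ± 0.14 at 72 h, or 10.2%, 7.74% and 5.88% of the control. The RA experiment repeated the 24 h comparison in stem cell medium, with 58.7 and 63.8 CPM in DMSO and 4.78 and 5.42 in dTAG, a log2 change of −3.58 ± 0.11. The lowest and the highest libraries of the groups did not overlap in any of these comparisons. Among all genes tested, Gtf2h4 stood at rank 62 of 17870 from the most negative change at 2 h of TT-seq and at rank 24 of 13925 at 24 h of RNA-seq.

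**Figure D1:**
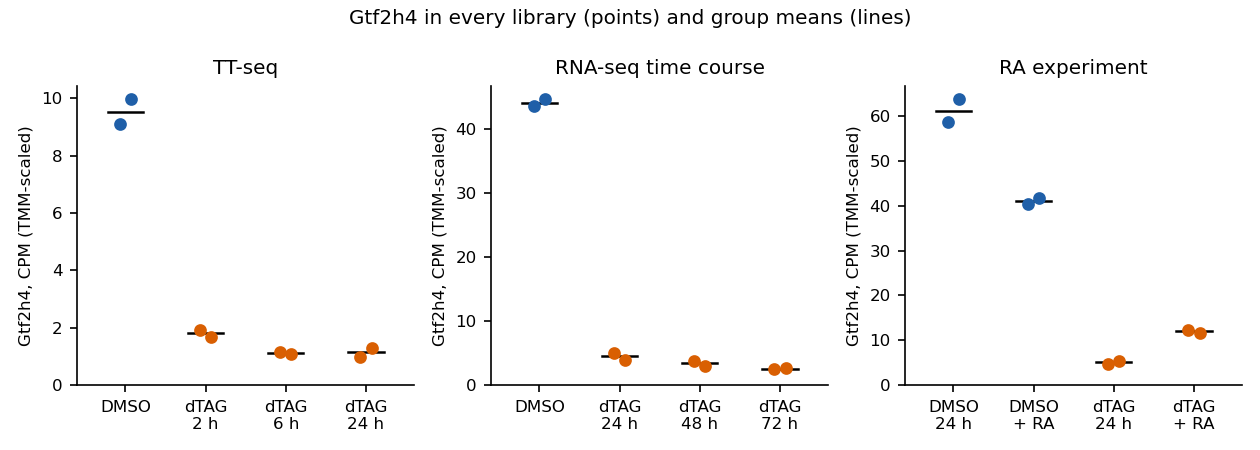
Level of Gtf2h4 in CPM on linear axes that start at 0, one point per library and a line at the mean of the 2 libraries, for TT-seq, the RNA-seq time course and the RA experiment (blue, DMSO; orange, dTAG). Every dTAG library lies below every DMSO library of its panel, and the dTAG libraries after RA, at 11.6 and 12.4 CPM, lie above those before RA.

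None of the partners of Gtf2h4 was called in nascent transcription. In TT-seq a gene was called at an adjusted p under 0.05 with an absolute log2 change above 0.5, by edgeR's quasi-likelihood test with Benjamini-Hochberg adjustment over all 17870 genes tested. All 10 members were tested, and the counts of calls are over the 9 partners, since Gtf2h4 was chosen for its fall. At 2 h 0 of 9 were called, where 2.60% of all genes were called in either direction. At 6 h 0 of 9 were called, with 3.23% of all genes called, and at 24 h 0 of 9, with 6.11% called. The log2 changes of the other 9 ran from −0.21 (Gtf2h3) to 0.16 (Mnat1) at 2 h, from −0.41 (Ercc2) to 0.30 (Mnat1) at 6 h and from −0.30 (Ercc2) to 0.33 (Ccnh) at 24 h. Their smallest adjusted p over the 3 times was 0.227, for Gtf2h3 at 6 h.

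The core subunits Gtf2h1, Gtf2h2, Gtf2h3, Gtf2h5, Ercc2 and Ercc3 had 2 h changes between −0.21 and −0.02 on the log2 scale. For Gtf2h3, the p34 subunit, the 2 DMSO libraries both held 40.2 CPM, and the 6 dTAG libraries lay below them, between 30.6 and 36.4. Its log2 change at 6 h was −0.34 ± 0.13 (SE). In the kinase module the 2 h changes were 0.10 ± 0.11 for Cdk7, 0.12 ± 0.19 for Ccnh and 0.16 ± 0.14 for Mnat1. None of these 9 genes passed the test, and the sign at 2 h turned for 6 of them (Gtf2h1, Gtf2h2, Ercc2, Ercc3, Ccnh and Mnat1) when a library was left out. The median log2 change of the 9 at 2 h was −0.05, and that of all genes tested was 0.01.

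In RNA-seq 1 partner of Gtf2h4 was called, at the last time point. Here a gene was called at an adjusted p under 0.01 by glmTreat of edgeR against a fold change of 1.5. At 24 h 0 of the 9 partners were called, with 5.73% of all genes called. At 48 h it was 0 of 9, with 18.2% called, and at 72 h 1 of 9, with 25.8% called. The gene called at 72 h was Gtf2h1, the p62 subunit that contacts activators and repair factors, and it was higher. Its DMSO libraries held 108 and 110 CPM, the 24 h libraries 106 and 99.0, the 48 h libraries 131 and 141, and the 72 h libraries 186 and 178. Both libraries at 48 h and both at 72 h lay above both DMSO libraries. At 72 h the log2 change of Gtf2h1 was 0.73 ± 0.05 (SE, adjusted p = 0.00339).

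That call of Gtf2h1 sat near the threshold. It was lost with DESeq2 (log2 change 0.72, adjusted p = 0.205), with no filter on low counts (0.69, adjusted p = 0.0441), without DMSO replicate 1 (0.72, adjusted p = 0.0199) and without dTAG 72 h replicate 1 (0.70, adjusted p = 0.0397). Hps5, a subunit of the BLOC-2 complex whose start lies 39 bp from that of Gtf2h1, was also called higher at 72 h, by 0.79 ± 0.08 (adjusted p = 0.00839), and lost its call under 8 of the alternatives.

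Mnat1, which assembles CDK7 and cyclin H, had a negative change at 72 h. Its DMSO libraries held 54.0 and 54.8 CPM, the 24 h libraries 61.4 and 59.4, the 48 h libraries 44.0 and 49.1, and the 72 h libraries 33.2 and 36.4. Its libraries thus lay above DMSO at 24 h and below DMSO at 48 and 72 h. The log2 change at 72 h was −0.64 ± 0.08, and it was not called against a fold of 1.5 (adjusted p = 0.252). By the thresholds of TT-seq it was called lower (adjusted p = 1.56e-08). Ercc2 (0.42 ± 0.08) and Ercc3 (0.26 ± 0.05) had positive changes at 72 h, and Gtf2h5 (−0.39 ± 0.10) and Cdk7 (−0.30 ± 0.06) negative ones, and none of these passed. Gtf2h2, Gtf2h3 and Ccnh lay between 0.03 and 0.07. The median of the 9 partners at 72 h was 0.04, beside 0.02 for all genes tested.

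**Figure D2:**
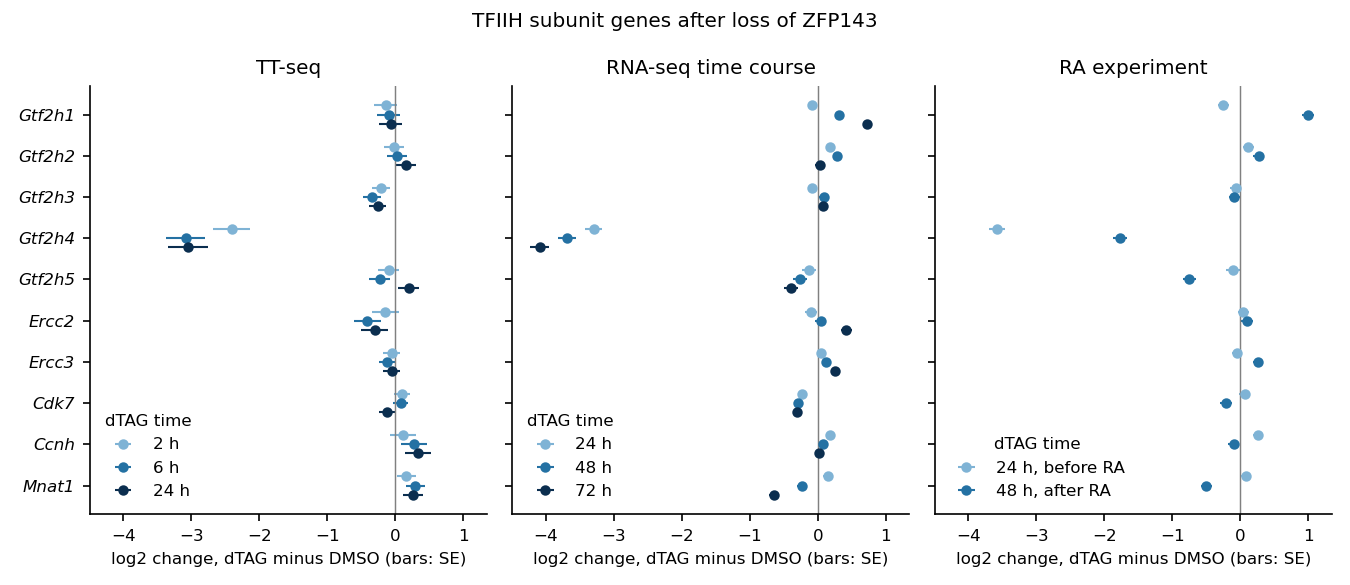
Fitted log2 change of dTAG minus DMSO for the 10 members, with bars of 1 SE, in TT-seq at 2, 6 and 24 h, in RNA-seq at 24, 48 and 72 h and in the RA experiment before and after RA. Gtf2h4 lies between −4.09 and −1.77 in every comparison, whereas the other 9 lie between −0.75 and 1.00.

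Differentiation with RA lowered 5 of the 10 members in control cells, and the RA effect differed between dTAG and DMSO for some of them. Along with the members, the summed level of the 8 stem cell markers went from 6793 and 6961 CPM to 1018 and 686 in DMSO, and from 6017 and 6063 to 1591 and 1346 in dTAG. The 5 RA response markers went from 4.30 and 4.36 CPM to 1258 and 1386 in DMSO, and from 9.45 and 9.05 to 1345 and 1391 in dTAG. These sums were mostly Stra8, with means of 777 CPM after RA in DMSO and 1119 in dTAG, whereas 3 of the 5 were called lower in dTAG after RA, namely Cyp26a1 (means of 268 and 59.1 CPM), Hoxb1 (143 and 24.7) and Rarb (39.98 and 20.5). The 5 primitive endoderm markers stood at 4.09 and 5.04 CPM before and 31.7 and 30.0 after RA in DMSO, and at 7.74 and 10.0 before and 54.9 and 52.0 after RA in dTAG, and the 4 fibroblast markers at 3.10 and 4.24 before and 6.54 and 10.3 after RA in DMSO, against 3.896 and 4.03 before and 25.9 and 26.2 after RA in dTAG. The sum of the 4 neural markers went from 241 and 256 CPM to 108 and 124 in DMSO. In dTAG it went from 140 and 138 to 52.9 and 50.4. These sums hide opposite directions. With RA, Nes and Tubb3 were called lower in both conditions, whereas Pax6 was called higher in both and Sox1 higher in DMSO alone. The part of these differences in cell state in the results below was not tested.

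In DMSO, RA lowered 5 of 10 members and raised 0, where 43.9% of all genes were called in either direction and 18.1% were called lower. The 5 were Gtf2h1 (log2 change −1.44 ± 0.08), Ercc2 (−1.19 ± 0.09), Gtf2h3 (−1.08 ± 0.08), Ercc3 (−1.05 ± 0.08) and Gtf2h2 (−0.80 ± 0.08), all of the core. Their adjusted p ran from 8.26e-10 for Gtf2h1 to 0.00538 for Gtf2h2. The call of Gtf2h2 was lost by DESeq2 (adjusted p = 0.0710) and without DMSO replicate 2 (−0.80), DMSO RA replicate 1 (−0.76) or DMSO RA replicate 2 (−0.73). XPD gene Ercc2, for example, went from 62.2 and 67.3 CPM to 30.4 and 26.1. The remaining 5 were not called. Gtf2h4 itself went from 58.7 and 63.8 CPM to 40.5 and 41.7, a log2 change of −0.58 ± 0.09 that did not pass against a fold of 1.5 (adjusted p = 0.454). Gtf2h5 (0.55 ± 0.10) and Mnat1 (0.20 ± 0.08) had positive changes. The median of the 10 was −0.75, and that of all genes tested was 0.03.

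In dTAG, RA lowered 4 of the 9 partners and raised 0, with 43.5% of all genes called and 18.5% called lower. Lower were Ercc2 (−1.14 ± 0.09), Gtf2h3 (−1.10 ± 0.08), Cdk7 (−0.96 ± 0.08) and Ccnh (−0.76 ± 0.08), with adjusted p from 9.65e-07 for Gtf2h3 to 0.00906 for Ccnh. The call of Ccnh was lost by DESeq2 (−0.72, adjusted p = 0.331) and when any of the 4 dTAG libraries was left out (−0.80 to −0.68). Without dTAG RA replicate 1, 2 members were called lower, as Cdk7 was lost too (−0.83, adjusted p = 0.0103). Gtf2h4, whose low level in dTAG was a reason for its choice, went from 4.78 and 5.42 CPM to 12.4 and 11.6, a log2 change of 1.23 ± 0.13 given as a description. Cdk7 went from 91.8 and 84.9 CPM to 43.9 and 46.6 in dTAG, and from 90.5 and 78.1 to 51.5 and 52.9 in DMSO, where its change of −0.69 ± 0.08 was not called (adjusted p = 0.0685). Without DMSO replicate 2 that change was −0.81. The RA effect on Cdk7 in dTAG minus that in DMSO was −0.27 ± 0.12, not called by the quasi-likelihood test (adjusted p = 0.0726).

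These counts depended on the scaling of the libraries. With library size alone in place of TMM the median of all genes shifted by 0.32 for the RA effect in DMSO and by 0.39 in dTAG. Then 2 members were called lower in DMSO, Gtf2h1 and Ercc2, and 1 higher, Gtf2h5, and in dTAG 0 were lower. In dTAG the changes of Gtf2h1, Gtf2h5 and Mnat1, none of them called, were then positive, but relative to the median of all genes they stayed as before, at −0.20, −0.09 and −0.38.

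**Figure D3:**
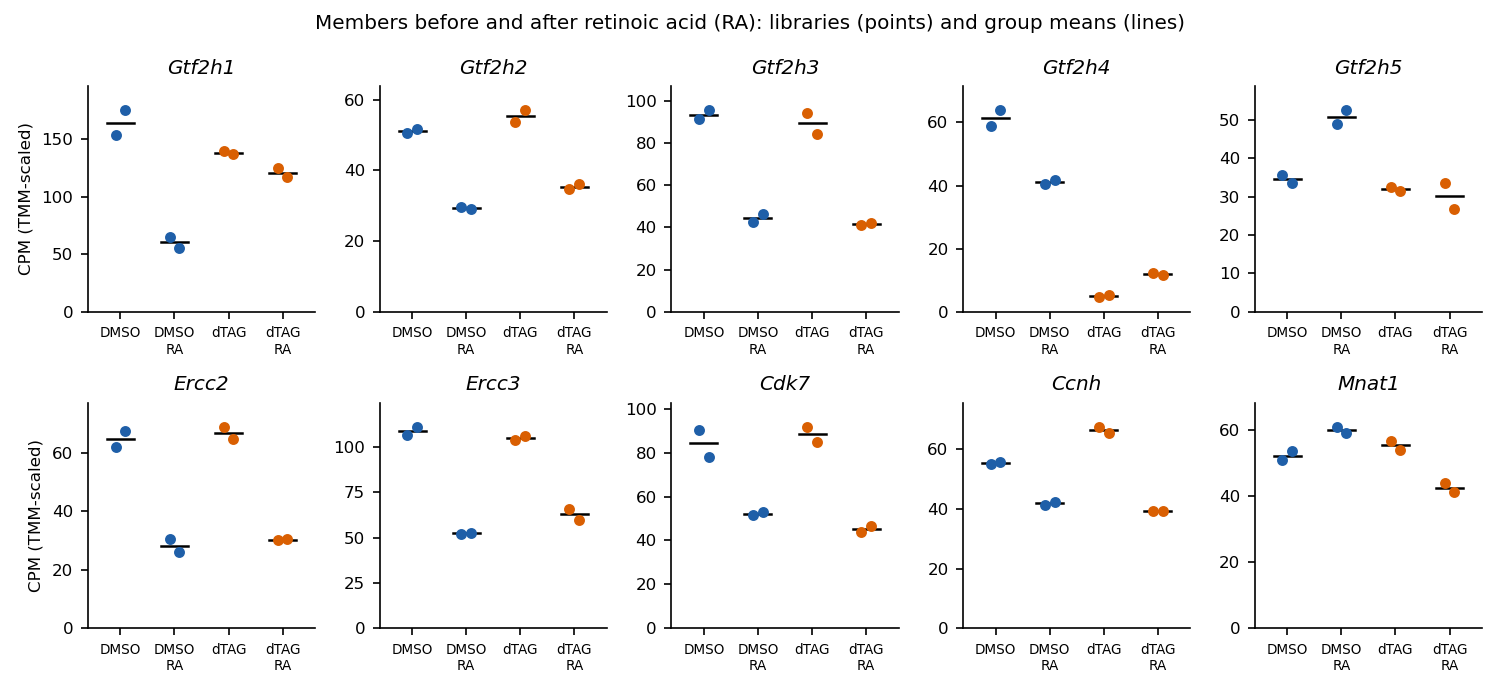
Level in CPM of each of the 10 members in the RA experiment on linear axes from 0, one point per library with a line at the mean of the 2 libraries (blue, DMSO; orange, dTAG), before RA and after RA. Ercc2 and Gtf2h3 drop in both conditions, Gtf2h1 drops in DMSO to 64.7 and 55.6 CPM and is at 125 and 117 in dTAG, and Gtf2h4 rises from a low level in dTAG.

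The difference between these RA effects was tested directly, as the effect in dTAG minus that in DMSO, by the quasi-likelihood test. Of the 9 partners 3 were called, where 31.7% of all genes were called, so the count is near the background and is no result about the members. Gtf2h1 had the interaction of 1.25 ± 0.12 (SE, adjusted p = 3.66e-08): it went from 153 and 175 CPM to 64.7 and 55.6 in DMSO, but from 139 and 137 to 125 and 117 in dTAG. Gtf2h5 (−0.64 ± 0.14, adjusted p = 0.00108) and Mnat1 (−0.58 ± 0.11, adjusted p = 0.000309) had the opposite sign. Gtf2h5 held 35.6 and 33.6 CPM before and 49.0 and 52.6 after RA in DMSO, whereas the dTAG libraries held 32.6 and 31.6 before and 33.6 and 26.8 after RA. Mnat1 held 51.0 and 53.5 CPM before and 61.03 and 59.0 after RA in DMSO, and 56.8 and 54.0 before and 43.9 and 41.2 after RA in dTAG.

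For Gtf2h4 the interaction was 1.80 ± 0.16, given as a description. Ercc2 (0.05 ± 0.13) and Gtf2h3 (−0.02 ± 0.12) had the smallest values among the 10. The calls of Gtf2h5 and Mnat1 were lost without dTAG RA replicate 2, at −0.43 and −0.48.

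Set against DMSO after RA, dTAG left Gtf2h4 lower and Gtf2h1 higher. In this comparison 1 of the 9 partners was called, with 16.5% of all genes called, and before RA it was 0 of 9, with 6.40% called. After RA the Gtf2h4 change was −1.77 ± 0.10, at 29.3% of the control level, against 8.38% before RA. Gtf2h1 was called higher by 1.00 ± 0.08 (adjusted p = 6.68e-05), and before RA its change was −0.25 ± 0.08 and not called. Gtf2h5 had −0.75 ± 0.10 after RA (adjusted p = 0.0740) and Mnat1 −0.50 ± 0.08 (not called), and the thresholds of TT-seq called Gtf2h5 lower. The other 6 lay between −0.21 and 0.27.

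Vars2, the mitochondrial valyl-tRNA synthetase gene that follows Gtf2h4 on its strand, was examined because the genes nearly touch, and was chosen after its position had been seen. In TT-seq it held 27.2 and 22.1 CPM in DMSO and 19.4 and 14.9 at 2 h, with changes of −0.52 ± 0.20, −0.59 ± 0.20 and −0.55 ± 0.20 at 2, 6 and 24 h that did not pass in the fit without a replicate block (adjusted p from 0.157 to 0.363). With the block it was called lower at 6 and 24 h. Its RNA change at 24 h was 0.00 ± 0.07, and at 72 h it was called lower by −0.97 ± 0.08 (adjusted p = 3.82e-05), a call that was lost with library size alone (−0.75, adjusted p = 0.0255). Vars2 had no ZFP143 peak at its promoter. How far reads past the end of Gtf2h4 enter the Vars2 counts was not tested. Eif2b1, a translation initiation subunit gene, and Serac1, a mitochondrial lipid gene, were not called in any comparison of dTAG with DMSO. The change of Serac1 at 72 h of RNA-seq was 0.68 ± 0.10 (adjusted p = 0.170), and it was called higher with library size alone (0.90, adjusted p = 0.00167) and by the thresholds of TT-seq. Gm26852, antisense to Ercc2, had between 6 and 12 reads per TT-seq library and at most 1 in RNA-seq. Klc3 overlaps the end of Ercc2 by 1258 bp and Rasa1 that of Ccnh by 8690 bp, each on the opposite strand, so RNA-seq counts of these members are uncertain to that extent.

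Levels of the members in control cells were compared per length, as CPM per kb of exons in RNA-seq and per kb of gene in TT-seq. In DMSO of the RNA-seq time course Gtf2h1 led at 36.6 ± 0.46 CPM per kb (SD, n = 2), followed by Ercc3 at 27.8 ± 0.68, Cdk7 at 25.2 ± 1.35 and Ccnh at 18.2 ± 0.77. Gtf2h4 came next, at rank 5, at 13.3 ± 0.23. Ercc2 (11.6), Gtf2h3 (10.9), Mnat1 (10.1) and Gtf2h2 (9.83) lay so close that the gaps between neighbours were about the SD of the pair, and Gtf2h5 was lowest at 7.83 ± 1.06. In DMSO of TT-seq the order ran from Cdk7 at 4.03 to Mnat1 at 0.888 CPM per kb. There the libraries of Cdk7, Gtf2h1 and Gtf2h5 overlapped, as did those of Ercc2 with both Gtf2h3 and Ercc3, those of Gtf2h2 and Gtf2h4 (1.68 and 1.59), and those of Ccnh and Mnat1. The order in RNA-seq depends on the length used. With the median transcript length in place of all exons, Gtf2h4 led at 66.9 CPM per kb and Ercc2 was lowest at 15.5.

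**Figure D4:**
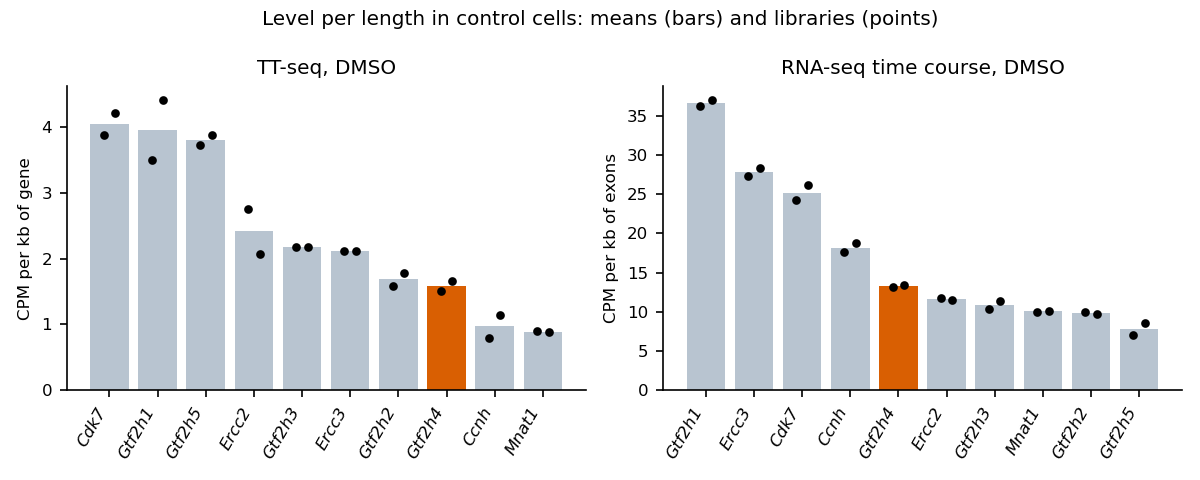
Level per length of the 10 members in DMSO cells, as CPM per kb of gene in TT-seq and CPM per kb of exons in RNA-seq, with bars at the mean of 2 libraries, points for the libraries and Gtf2h4 in orange. Gtf2h4 stands at 1.59 in TT-seq and at 13.3 in RNA-seq, neither the highest nor the lowest of the complex in either assay.

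The genes whose response was most like that of Gtf2h4 were taken as the 5 with the smallest Euclidean distance over 8 log2 changes, those of dTAG minus DMSO in the 3 tables, among 12810 other genes tested in all of them. Several of the 8 share control libraries. The 5 were Cpox, a heme synthesis enzyme (distance 0.937), Kctd17 (1.16), Lmnb2, which encodes lamin B2 (1.19), Zmat5, a spliceosome component (1.25), and the zinc finger gene Zfp418 (1.30). Their changes at 2 h of TT-seq ran from −3.04 (Lmnb2) to −1.93 (Zmat5), and at 72 h of RNA-seq from −4.43 (Lmnb2) to −3.44 (Cpox). After RA the 5 lay between −2.05 and −1.66, beside −1.77 for Gtf2h4. All 8 changes, the one after RA included, entered the choice, so this likeness was fixed by it. Of these genes 4 had a ZFP143 peak at the promoter, with centres from 0.033 to 0.172 kb from the start, beside 10.1% of protein-coding genes bound, and Cpox had its nearest peak 57.7 kb away. A choice by Pearson correlation, which ignores the size of a change, gave 5 other genes, of which 0 were bound.

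Stretches of 36 bases that start at an ACTACA before the gene start are shown for Gtf2h4 and for 3 of the 4 like genes with a promoter sequence at hand (Cpox held none, and Kctd17 was not searched), to let their letters be compared. They are RefSeq bases of GRCm38.p6, with capitals for matches as above, at 37 bases before the start of Gtf2h4 (chr17:35673745-35673780, minus strand), 99 before that of Zfp418 (chr7:7171254-7171289, plus strand), 100 before that of Lmnb2 (chr10:80918310-80918345, minus strand) and 92 before that of Zmat5 (chr11:4704564-4704599, plus strand).
Gtf2h4: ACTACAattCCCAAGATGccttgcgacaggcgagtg
Zfp418: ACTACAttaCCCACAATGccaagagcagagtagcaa
Lmnb2: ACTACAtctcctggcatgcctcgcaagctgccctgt
Zmat5: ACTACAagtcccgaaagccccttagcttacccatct

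Gtf2h4 and Zfp418 held both parts of the motif with the same spacing of 3 bases, whereas Lmnb2 and Zmat5 held the first part alone in these stretches. A further ACTACA on the same strand, not shown, began 29 bases before the start of Lmnb2 and 4 bases before that of Zmat5.

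**Figure D5:**
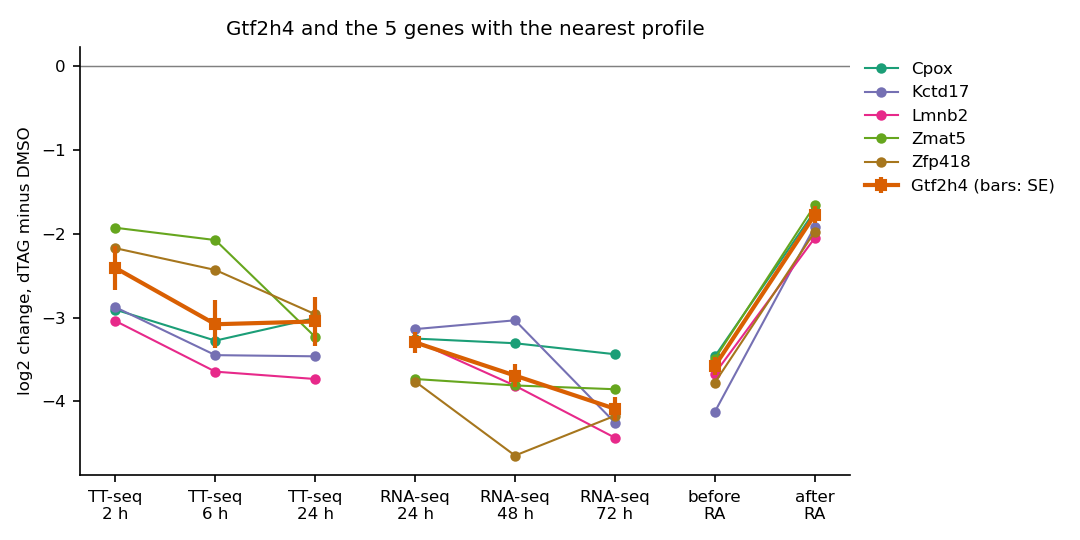
Log2 change of dTAG minus DMSO for Gtf2h4 (orange squares, bars of 1 SE) and the 5 genes with the nearest profile (circles) over TT-seq, the RNA-seq time course and the RA experiment, with lines joining values of one experiment. All 6 genes lie at or below −1.66 throughout and are less far below 0 after RA than before it, a likeness that the choice of the genes fixed.

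Genes that work with TFIIH were examined in 4 lists made from general knowledge. Of 21 other general transcription factors 0 were called at 2 h of TT-seq, beside 2.60% of all genes, and 6 of the 21 had a ZFP143 peak, beside 10.1% of protein-coding genes. At 72 h of RNA-seq 4 of 20 tested were called lower and 0 higher, beside 12.04% and 13.7% of all genes, with Gtf2e1, a subunit of the TFIIE that recruits TFIIH, the most changed at −1.04 ± 0.08 (adjusted p = 1.07e-06). After RA 0 of 20 were called, beside 16.5% of all genes. Of 12 RNA polymerase II subunits 0 were called at 2 h and 2 were bound, beside the same shares. At 72 h, with 25.8% of all genes called, 1 of 12 was called, Polr2e, lower by −0.73 ± 0.05 (adjusted p = 0.00155), and after RA, with 16.5% of all genes called, 1 of 12 was called, Polr2a, the subunit with the phosphorylated tail, higher by 1.08 ± 0.07 (adjusted p = 6.24e-07). The median log2 change at 2 h was −0.03 for the factors and −0.25 for the polymerase subunits, beside 0.01 for all genes.

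Of 23 partners in nucleotide excision repair 2 had a peak, beside 10.1% of protein-coding genes, and 1 was called lower at 2 h, beside 2.43% of all genes. It was Lig1, DNA ligase I, at −0.70 ± 0.13 (adjusted p = 0.0279), which was also called lower at 72 h of RNA-seq, by −1.46 ± 0.05 (adjusted p = 3.63e-16), and after RA, by −0.96 ± 0.08 (adjusted p = 6.71e-05). Lig1 had a peak. In dTAG against DMSO after RA, 2 of 23 were called lower, Lig1 and Rpa1, and 0 higher, beside 7.36% and 9.10% of all genes. At 72 h 1 of 23 was lower and 1 was higher, beside 12.04% and 13.7% of all genes, and the most changed was Uvssa, which brings TFIIH to stalled polymerase, at 1.99 ± 0.13 (adjusted p = 6.27e-11). Of 12 other transcription kinases and cyclins 7 were bound, beside 10.1% of protein-coding genes, and 0 were called at 2 h, beside 2.60% of all genes. At 72 h, where 25.8% of all genes were called, 1 was called, Ccnl1 (cyclin L1), higher by 0.91 ± 0.06 (adjusted p = 1.68e-06), and after RA 0 were called, beside 16.5% of all genes.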

How the data were processed

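The authors mapped reads with STAR to mm10 and deposited raw read counts per gene of GENCODE vM25. TT-seq reads were first stripped of duplicates and split by strand, then counted with htseq-count, and RNA-seq reads were counted by the counting mode of STAR, whose strand setting is not given in the sources used here. The ZFP143 peak list deposited by the authors comes from MACS2 and gives each peak's enrichment as a ratio to input and its q-value as −log10. Their CTCF list, with DMSO and dTAG pooled, holds positions alone. Of 55401 gene identifiers, 55141 matched GENCODE vM21 of the same build without their version.

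A gene was tested if its count exceeded 10 in 4 or more of 8 libraries, with edgeR 4.0.16 in R 4.3.3, scaled by TMM, in 1 fit per table of 4 groups of 2 libraries. P-values were adjusted by the Benjamini-Hochberg method across every tested gene, and none was set from the members alone. The test code was checked on simulated data. DESeq2 1.42.0 was an alternative. The labels do not say what separates the 2 libraries of a group, and the study calls them biological replicates. CPM values carry counting error besides the spread between libraries. Values are named for the 10 members, Zfp143, genes with a start within 1000 bp of a member's, the 5 genes most like Gtf2h4, list genes called at 2 h, and per list the most changed called gene at 72 h and after RA. The members and lists were chosen with earlier results of these data known. Vars2, Klc3 and Rasa1 were added after their positions had been seen. The 4C files were not used.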

Additional observations from a re-analysis of the deposited data

Results flagged for a closer look

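Of the 9 partners of Gtf2h4, 3 had an RA effect in dTAG that differed from that in DMSO by the quasi-likelihood test of edgeR on the interaction, where 31.7% of all genes did, so the count is near the background. For Gtf2h4 the log2 difference of the RA effects was 1.80 ± 0.16 (SE), given without a test because the gene was chosen with its response known, and its dTAG libraries after RA lay above those before it while its DMSO libraries after RA lay below. It was 1.25 ± 0.12 for Gtf2h1 (adjusted p = 3.66e-08), −0.64 ± 0.14 for Gtf2h5 (adjusted p = 0.00108) and −0.58 ± 0.11 for Mnat1 (adjusted p = 0.000309). Over the 8 fits that left out a library each, they ranged from 1.72 to 1.90 for Gtf2h4, from 1.15 to 1.39 for Gtf2h1, from −0.75 to −0.43 for Gtf2h5 and from −0.62 to −0.48 for Mnat1. The calls of Gtf2h5 and Mnat1 were lost without dTAG RA replicate 2.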

How the results depend on the processing

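No member's called change reversed its direction under any alternative run. Counts of members called moved by over 1.5 times as follows. They include Gtf2h4, chosen for its fall, which is the 1 member lower in each comparison of dTAG with DMSO and 1 of those called for the interaction. Nothing is read from its calls. With library size alone, RA lowered 2 and raised 1 in DMSO and lowered 0 in dTAG. With the thresholds of the other assay, 2 were lower at 72 h (Gtf2h4 and Mnat1), 2 were lower in dTAG after RA (Gtf2h4 and Gtf2h5), RA raised 1 in DMSO, and 0 had a lower interaction. With no filter and by DESeq2, 0 were higher at 72 h. Leaving out a library each, the count ranged from 0 to 1 for lower at 2 h of TT-seq (0 without dTAG 2 h replicate 2), from 0 to 1 for higher at 72 h (0 without DMSO replicate 1 or dTAG 72 h replicate 1), from 2 to 3 for lower by RA in dTAG (2 without dTAG RA replicate 1) and from 0 to 2 for a lower interaction (0 without dTAG RA replicate 2). The cause was not tested. Smaller moves were RA in DMSO from 5 to 4 lower by DESeq2 and without either DMSO RA library, and to 7 with the thresholds of the other assay, and RA in dTAG from 4 to 3 lower by DESeq2, with its size factors and with the replicate block (Ccnh lost), to 5 with no filter (Ercc3 gained) and to 6 with the other thresholds.

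Library size alone shifted the median of all genes by 0.13 to 0.39 in the RNA-seq comparisons other than the interaction. The genes called lower and higher were 475 and 323 by TMM against 385 and 495 by library size at 24 h, 1073 and 1456 against 698 and 2047 at 48 h, 1677 and 1912 against 1109 and 2736 at 72 h, 583 and 436 against 481 and 626 before RA, 1171 and 1449 against 762 and 2089 after RA, 2877 and 4113 against 1710 and 5164 for RA in DMSO, and 2939 and 3980 against 1518 and 5447 for RA in dTAG. The members whose sign turned under it were not called. By DESeq2 the lower and higher calls numbered 335 and 102 for 24 h, 729 and 780 for 48 h, 1156 and 1123 for 72 h, 474 and 143 before RA, and 765 and 789 after RA.

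The replicate numbers were not said to pair libraries. Same-numbered libraries deviated together in TT-seq (r from 0.214 to 0.667) and not in the RNA-seq time course (−0.0558 to 0.0575) or the RA experiment (−0.175 to 0.192). With the replicate number as a block, 1 call among the members was lost, Ccnh under RA in dTAG (−0.76, adjusted p = 0.0113), and 109 other values kept their side of the threshold. Over all genes the block raised the calls in TT-seq, from 435 lower and 30 higher to 662 and 87 at 2 h, from 506 and 71 to 956 and 359 at 6 h, and from 730 and 361 to 1214 and 1009 at 24 h. For Vars2 in TT-seq the block gave calls at 6 h, with an adjusted p of 0.0379, and also at 24 h, with 0.0374. Depth limits Gtf2h4 in TT-seq, with 10 to 28 reads per dTAG library.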
